A study of Mus musculus with 24 samples.

Results

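Actins are the proteins of the thin filament and of the cytoskeleton, and the mouse makes 6 of them from 6 genes. Acta1 (skeletal alpha-actin) and Actc1 (cardiac alpha-actin) build sarcomeres, Acta2 and Actg2 are the smooth muscle isoforms, and Actb and Actg1 are the cytoplasmic ones made in nearly every cell. Cardiac alpha-actin is the main sarcomeric actin of the heart and of developing skeletal muscle, and adult fibres rely on skeletal alpha-actin. All 6 genes were found by their symbols among the 24537 genes of the count table. The group was put together because Actc1 was among the genes with the largest fall in EDL after induction of the reprogramming factors, so the genes were chosen by the EDL differences between Cre+ and Cre- muscles at 2.5 and 8.5 days, which are given below as a description with no test.

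The data are polyA RNA-seq of whole extensor digitorum longus (EDL, mostly fast fibres) and soleus (SOL, mostly slow fibres) muscles of 2-month-old mice on regular chow, with 2 libraries per group and 24 in all. Acta1-Cre+/4Fhet mice (Cre+) were compared with Acta1-Cre-/4Fhet mice (Cre-), and all of them, controls included, carried the 4F cassette for Oct4, Sox2, Klf4 and c-Myc (OSKM) and the rtTA transgene behind a stop cassette, and drank water with 1 mg/ml of Dox. Muscles were taken after 2.5 days, 5.5 days and 8.5 days of Dox. Cre is driven by the promoter of skeletal alpha-actin, so OSKM is induced in myofibers, whereas the RNA came from every cell of the muscle. In such bulk samples, fewer cells of a type and less RNA per cell cannot be told apart.

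Libraries held between 36088781 and 54679082 counts. Pou5f1 (Oct4) was at 17.5 to 76.2 FPKM (a count divided by exon length and by library size) in the 4 Cre+ EDL libraries of 2.5 and 8.5 days, at 5.02 to 12.2 FPKM in the 4 such SOL libraries, and at no more than 0.0896 FPKM in the 12 Cre- libraries. At 5.5 days, the EDL libraries labelled Cre+ were at 1.02 and 27.7 FPKM, and the SOL libraries labelled Cre+ at 0.0785 and 0.387 FPKM. The authors had set the 5.5-day samples aside as outliers, and they are used here with that limit. Slow fibre markers (Myh7, Myh2, Tnnt1, Tnni1, Tnnc1, Myl2 and Myl3) summed to 31731 to 49976 FPKM in SOL and to 329.3 to 1810 FPKM in EDL, and fast fibre markers (Myh4, Myh1, Tnnt3, Tnni2, Tnnc2, Pvalb and Mylpf) to 23573 to 43219 FPKM in SOL and to 55350 to 98735 FPKM in EDL.

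The genes lie on 6 chromosomes, all on the minus strand of mm10. Acta1 is at chr8:123891758-123894775, Actc1 at chr2:114047284-114052875 and Acta2 at chr19:34240336-34255373. Actg2 is at chr6:83512909-83536251, Actb at chr5:142903115-142906754 and Actg1 at chr11:120345687-120348495. Their coding sequences, taken from the longest GENCODE vM21 transcript of each gene, are so alike that a read has to be placed by scattered single bases. Between pairs of genes, 81.5% to 88.7% of aligned coding bases were identical, with Actb and Actg1 the closest pair and Acta1 and Actc1 at 86.2%. The last 90 coding bases of each gene, stop codon included, show how few bases carry this information, with capitals at the bases that differ from Acta1.
Acta1: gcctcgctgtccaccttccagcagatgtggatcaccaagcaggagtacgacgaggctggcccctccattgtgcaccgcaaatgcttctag
Actc1: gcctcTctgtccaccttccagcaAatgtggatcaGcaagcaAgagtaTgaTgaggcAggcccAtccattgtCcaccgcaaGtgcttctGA
Acta2: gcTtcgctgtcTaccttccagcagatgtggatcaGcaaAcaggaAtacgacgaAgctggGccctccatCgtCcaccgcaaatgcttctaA
Actg2: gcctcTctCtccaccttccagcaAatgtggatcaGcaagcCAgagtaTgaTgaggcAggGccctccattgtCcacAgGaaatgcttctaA
Actb: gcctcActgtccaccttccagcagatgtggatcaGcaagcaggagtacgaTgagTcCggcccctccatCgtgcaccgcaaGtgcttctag
Actg1: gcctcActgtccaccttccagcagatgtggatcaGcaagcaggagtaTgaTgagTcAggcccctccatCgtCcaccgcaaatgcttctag
In this window Actc1 differed from Acta1 at 12 bases, Acta2 at 10, Actg2 at 14, Actb at 7 and Actg1 at 8.

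The authors counted only reads with 1 place in the genome, so windows of each transcript were looked up, on both strands and without mismatch, in all GENCODE transcripts. Of 50-base windows, 100% of Actc1 and of Actg2, 97.8% of Acta1 and 99.6% of Acta2 were found in no other gene. Actb had 85.8% of such windows, and the gene that shared most of the others was Lrrc58. Actg1 stood apart with 43.3%, and none of its coding windows (0%) was free of a match, most of them in Gm12715. With windows of 100 bases the Actg1 share was 48.9% over the transcript and 8.07% in the coding part, whereas its untranslated windows were free of a match in 100% of cases. The read length is not given in the sources used here, and at 50 to 100 bases the Actg1 counts rest largely on the untranslated part of its mRNA. The level of Actg1 beside the other actins is therefore uncertain and may be too low, and Actg1 also overlaps Mir6935.

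**Figure D1:**
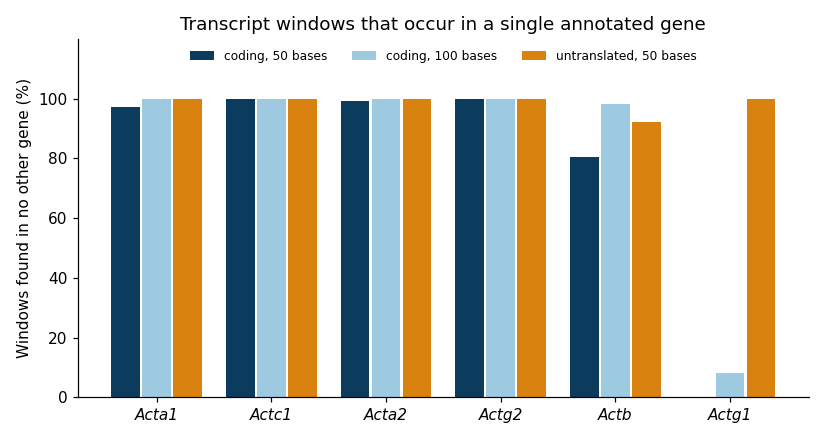
Share of windows of each actin transcript, in percent, that occurs in no other annotated mouse gene, for coding windows of 50 and 100 bases and untranslated windows of 50 bases. Actg1 is at 0% for coding windows of 50 bases and at 8.07% for those of 100 bases, and the other 5 genes are at 80.4% or more.

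Actin genes are classical targets of serum response factor (SRF), which binds the CArG box (CC, then 6 bases that are each A or T, then GG, the same on both strands). Promoter sequences of RefSeq (GRCm38.p6, 300 bases around the annotated start) were at hand for 4 of the 6 genes, Acta1, Actc1, Acta2 and Actg1. A CArG box stood in those of Acta1, Actc1 and Actg1, starting 73, 47 and 90 bases before the annotated start, and 1.63% of 32851 mouse promoters held one. The letters TATAAA, read on either strand, began 7 bases before the annotated start in Acta1 and 33 bases after it in Actc1. The distances are thus from annotated starts, which may not be those used in muscle. The window of Acta2 held none, which says only that these exact letters are not in it. Near matches were not counted in any window, and that of Acta2 holds ccctatatgg and ccttgtttgg, which come close to the box without matching it. The 250 bases before the start are printed with the box in capitals for chr8:123894776-123895025 (Acta1), chr2:114052876-114053125 (Actc1) and chr11:120348496-120348745 (Actg1), all on the minus strand.
Acta1: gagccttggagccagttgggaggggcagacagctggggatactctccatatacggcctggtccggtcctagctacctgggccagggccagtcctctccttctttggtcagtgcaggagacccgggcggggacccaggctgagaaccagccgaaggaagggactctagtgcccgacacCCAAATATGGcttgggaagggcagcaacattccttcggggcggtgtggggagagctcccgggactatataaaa
Actc1: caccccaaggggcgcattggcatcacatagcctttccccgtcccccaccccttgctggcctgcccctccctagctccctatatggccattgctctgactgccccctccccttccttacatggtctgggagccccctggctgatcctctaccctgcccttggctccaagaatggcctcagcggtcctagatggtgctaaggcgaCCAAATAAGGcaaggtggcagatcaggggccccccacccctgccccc
Actg1: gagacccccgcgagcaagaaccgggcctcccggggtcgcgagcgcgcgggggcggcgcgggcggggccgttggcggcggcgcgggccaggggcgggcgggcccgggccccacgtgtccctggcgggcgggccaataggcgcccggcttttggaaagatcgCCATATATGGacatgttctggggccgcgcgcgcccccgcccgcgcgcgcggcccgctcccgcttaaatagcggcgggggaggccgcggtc

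Acta1 was by far the most abundant actin in every library, and Actc1 was the one with the widest range. Per length, Acta1 ranged from 9527 to 33565 FPKM with a median of 21578 FPKM, and made up 97.6% to 99.4% of the summed FPKM of the 6 genes. Actb followed with a median of 125 FPKM (70.5 to 225 FPKM), then Actc1 with 45.5 FPKM (14.7 to 313 FPKM). Actg1 had a median of 29.5 FPKM (12.98 to 52.8 FPKM) and Acta2 one of 13.8 FPKM (7.21 to 33.5 FPKM). Actg2 was at the edge of detection, at 4 to 55 counts and a median of 0.243 FPKM. The ranges of Actb, Actc1, Actg1 and Acta2 overlapped with those of their neighbours, while Acta1 and Actg2 did not overlap with any neighbour in this order.

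The highest library exceeded the lowest by 21.3-fold for Actc1, by 15.0-fold for Actg2 and by 3.19-fold to 4.65-fold for the other 4 genes. The spread between libraries of 1 group was also wide for Actc1. Its biological coefficient of variation in the fit of all 24 libraries was 0.338, against a common value of 0.171, and exceeded that of 99.2% of the 2456 genes of similar abundance (within 1 unit of log2 CPM, a count scaled to library size). That of Actg2, at few counts, was higher still at 0.535, and the others were 0.241 for Acta2, 0.158 for Actb, 0.156 for Actg1 and 0.151 for Acta1. Most of the family varied more than genes of similar abundance. The value exceeded that of 96.9% of such genes for Acta2, 92.6% for Actg2, 88.4% for Actb and 86.0% for Actg1. Acta1 had too few genes of similar abundance for this.

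**Figure D2:**
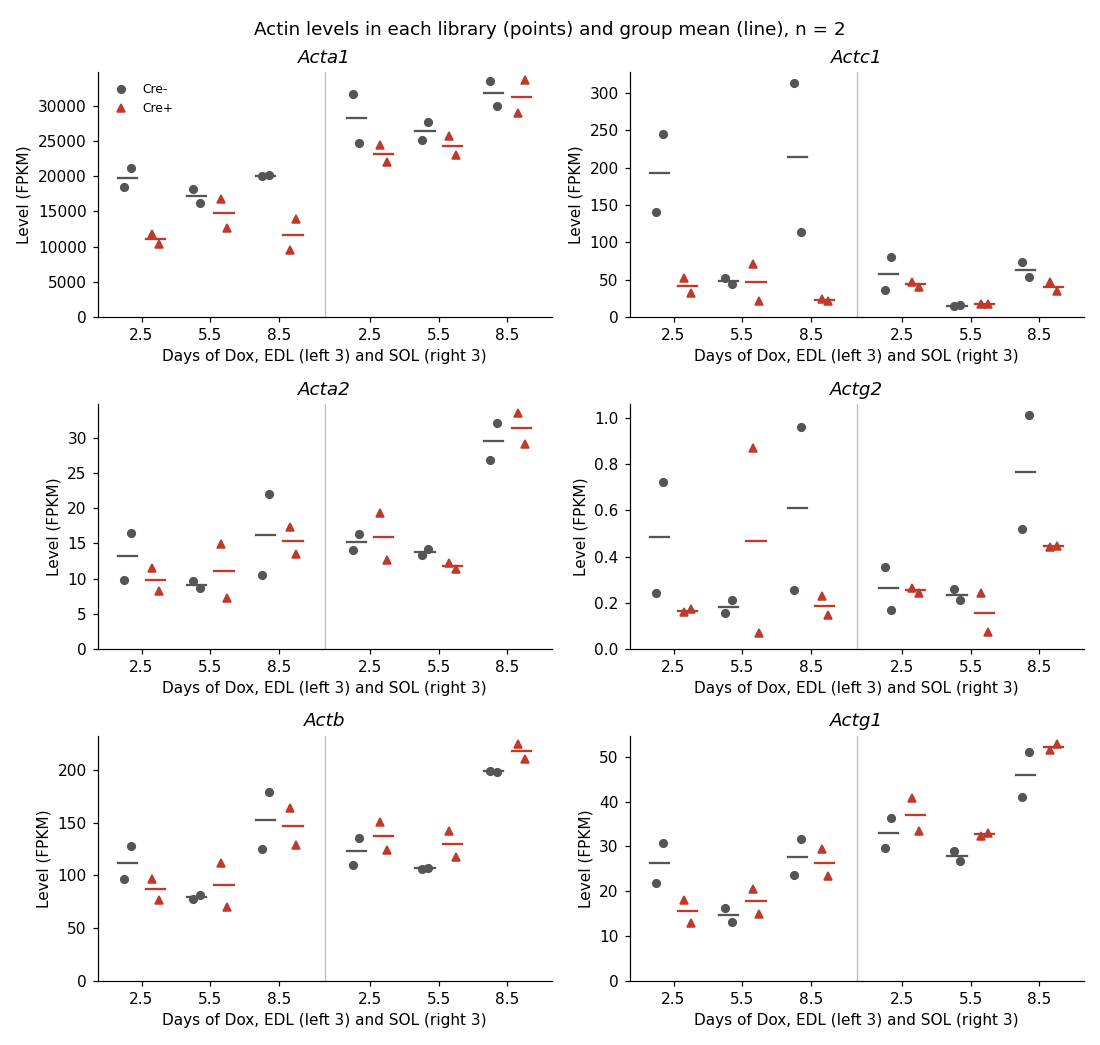
Level of the 6 actin genes in FPKM (y axes, linear, from 0) in each of the 24 libraries by days of Dox and muscle, with Cre- as grey circles, Cre+ as red triangles and a line at the mean of each group of 2. Actc1 reaches 313 FPKM in Cre- EDL and stays at 71.6 FPKM or lower in Cre+ EDL, whereas Acta1 in SOL lies between 22051 and 33565 FPKM in both genotypes.

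In EDL, both striated actins were lower in Cre+ than in Cre- muscles at 2.5 and 8.5 days, Actc1 by far more than Acta1. At 2.5 days, Actc1 was at 140 and 245 FPKM in Cre- EDL and at 52.0 and 32.4 FPKM in Cre+ EDL. At 8.5 days, it was at 313 and 114 FPKM in Cre- EDL and at 24.8 and 22.3 FPKM in Cre+ EDL. The groups did not overlap on either day, and the Cre- libraries of 8.5 days lay far apart. The log2 fold change of Actc1 was -2.52 ± 0.48 (SE) at 2.5 days and -3.35 ± 0.49 at 8.5 days, which put it 64th and 29th from the lowest of 15372 genes. Without the higher Cre- library of 8.5 days (replicate 1), the latter value was -2.47.

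Acta1 was at 18464 and 21105 FPKM in Cre- EDL and at 11857 and 10417 FPKM in Cre+ EDL at 2.5 days. At 8.5 days, it was at 19988 and 20089 FPKM in Cre- EDL and at 9527 and 13897 FPKM in Cre+ EDL. Again the groups did not overlap, with log2 fold changes of -1.16 ± 0.27 and -0.94 ± 0.27. Of the fast fibre markers, 5 of 7 fell at 2.5 days and 2 of 7 at 8.5 days, beside 10.2% and 6.5% of all genes. The median log2 fold change of the fast fibre markers was -0.90 at 2.5 days and -0.62 at 8.5 days, against -0.047 and -0.017 over all genes. Their summed level was 88207 to 98735 FPKM in Cre- and 55350 to 70780 FPKM in Cre+ EDL at 2.5 days. Of 7 slow fibre markers 0 fell and 0 rose on either day, with medians of 0.13 and -0.48. The part of these markers in the actin values was not tested.

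The same values, which chose the genes, can be written as a share, and this adds no further evidence. Actc1 took a smaller share of the striated actin mRNA in Cre+ than in Cre- EDL at 2.5 and 8.5 days. Of the summed Acta1 and Actc1 FPKM, Actc1 was 0.755% and 1.15% in Cre- EDL at 2.5 days and 1.54% and 0.565% at 8.5 days. In Cre+ EDL it was 0.437% and 0.31% at 2.5 days and 0.26% and 0.16% at 8.5 days, below all 4 of those Cre- libraries. The Cre- EDL libraries of 5.5 days were at 0.287% and 0.273%, below both Cre+ libraries of 2.5 days.

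The smooth muscle and cytoplasmic actins had negative log2 fold changes in Cre+ EDL too, and those of Actg1, Actb and Acta2 were close to their SE at 8.5 days. Actg1 was at 21.8 and 30.8 FPKM in Cre- and at 18.0 and 12.98 FPKM in Cre+ EDL at 2.5 days, with no overlap, and its log2 fold change was -1.09 ± 0.23. At 8.5 days its groups overlapped (23.7 and 31.7 FPKM in Cre-, 29.4 and 23.4 FPKM in Cre+) and the log2 fold change was -0.26 ± 0.22. Actb had log2 fold changes of -0.70 ± 0.21 and -0.24 ± 0.21, and its FPKM overlapped between genotypes on both days. Without Cre- replicate 2 the 8.5-day value of Actb was 0.053, so its sign rests on that library.

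Acta2 was at 9.81 and 16.5 FPKM in Cre- and at 11.5 and 8.20 FPKM in Cre+ EDL at 2.5 days, with a log2 fold change of -0.75 ± 0.34. It was at 10.5 and 22.0 FPKM in Cre- and at 17.3 and 13.5 FPKM in Cre+ EDL at 8.5 days, with -0.26 ± 0.33, and the groups overlapped on both days. Without Cre- replicate 2 the 8.5-day value was 0.39, and its sign thus rests on that library too. Actg2 gave -1.86 ± 0.68 and -1.88 ± 0.66 from 9 to 52 counts a library. Without Cre- replicate 2 these values were -0.84 at 2.5 days and -0.60 at 8.5 days.

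A gene was called where the adjusted p was under 0.05 and the absolute log2 fold change over 0.5. By this rule 4 of the 6 actins (Acta1, Actc1, Actb and Actg1) were past it in EDL at 2.5 days, where 24% of all genes tested were called (13.8% higher and 10.2% lower in Cre+), and 2 (Acta1 and Actc1) at 8.5 days, where 14.1% were (7.63% higher and 6.5% lower). Since this contrast chose the genes, nothing is read from these counts. The same holds for fits with a library left out. Actc1 was past the rule on both days in each of them, but it was chosen for its fall in these libraries, so this is no support. At 2.5 days Acta1, Actb and Actg1 were under the rule without Cre+ replicate 2, and Actb also without Cre- replicate 2. At 8.5 days Acta1 was past the rule only when Cre+ replicate 2 was left out, and was under it without any of the other 3 libraries. Without Cre- replicate 1, Actg2 was past the rule on both days (-2.46 and -2.53). Scaling moved the values in EDL: with library size alone, the log2 fold changes of all genes had a median of 0.28 at 2.5 days and 0.16 at 8.5 days, against -0.047 and -0.017 with TMM. The calls at 2.5 days were then 4207 higher and 610 lower, against 2118 and 1566, and the log2 fold change was -0.83 for Acta1 and -0.37 for Actb.

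**Figure D3:**
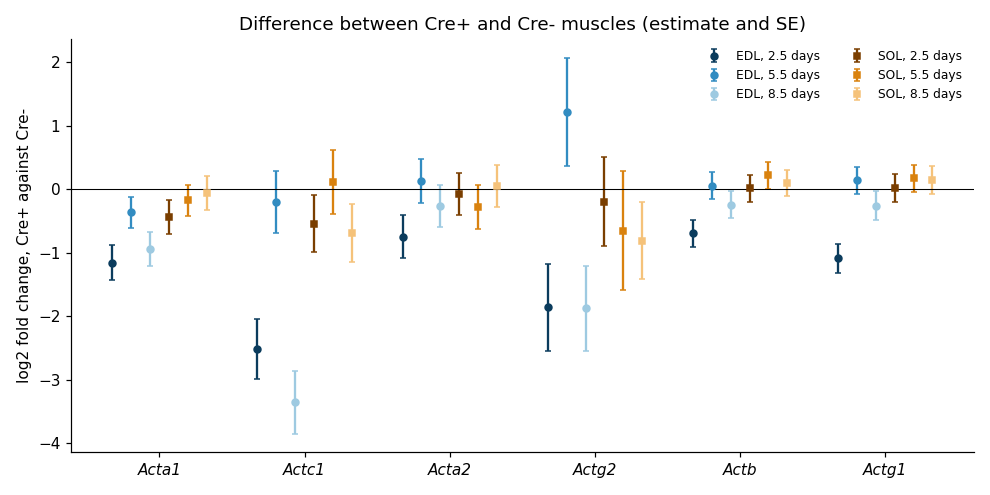
Log2 fold change of each actin gene (y axis) between Cre+ and Cre- muscles with its SE as bars, for EDL (circles) and SOL (squares) at 2.5, 5.5 and 8.5 days. Actc1 lies at -2.52 and -3.35 in EDL at 2.5 and 8.5 days, and each SOL estimate lies between -0.81 and 0.22.

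In SOL, none of the actins passed the test between Cre+ and Cre-. Actc1 was at 35.9 and 80.4 FPKM in Cre- SOL and at 47.4 and 40.7 FPKM in Cre+ SOL at 2.5 days, so the groups overlapped. At 8.5 days, it was at 73.7 and 53.7 FPKM in Cre- SOL and at 46.8 and 34.8 FPKM in Cre+ SOL, with no overlap. The log2 fold change of Actc1 was -0.54 ± 0.45 (95% interval -1.53 to 0.44, adjusted p = 0.652) at 2.5 days and -0.69 ± 0.45 (-1.68 to 0.29, adjusted p = 0.918) at 8.5 days. These intervals still allow Actc1 in Cre+ SOL to be well below its level in Cre- SOL, and without Cre- SOL replicate 2 the 2.5-day value was 0.11.

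Acta1 was at 31675 and 24655 FPKM in Cre- SOL and at 24346 and 22051 FPKM in Cre+ SOL at 2.5 days, with a log2 fold change of -0.44 ± 0.27 (adjusted p = 0.519). At 8.5 days it was at 33449 and 29990 FPKM in Cre- SOL and at 28963 and 33565 FPKM in Cre+ SOL, with -0.06 ± 0.27 (adjusted p = 0.999). Cre+ SOL lay below Cre- SOL at 2.5 days by a margin the test did not separate from the spread between libraries. The other 4 genes had log2 fold changes of -0.81 to 0.15 on these days.

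By edgeR's quasi-likelihood test, 0 of 6 actins were called in SOL at 2.5 days, where 0.384% of all genes were (0.345% higher and 0.039% lower in Cre+). At 8.5 days 0 were called, beside 0.631% of all genes (0.332% higher and 0.299% lower), and at 5.5 days 0, beside 0% of all genes. DESeq2 also called 0 on each day, and 0 of the 6 had an unadjusted p under 0.05. The share of Actc1 in striated actin FPKM in SOL at 2.5 and 8.5 days was 0.161% ± 0.0406 (SD, n = 4) in Cre+ and 0.209% ± 0.0889 (n = 4) in Cre-. The difference of -0.0485 percentage points gave a two-sided exact permutation p of 0.4, and the smallest p that 4 against 4 allows is 0.0286.

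At 5.5 days, the Cre- EDL libraries had less Actc1 than those of the other days, and the libraries labelled Cre+ lay on both sides of them. Actc1 was at 52.4 and 44.2 FPKM in Cre- EDL, below the 140 FPKM or more of the Cre- EDL libraries of 2.5 days and the 114 FPKM or more of those of 8.5 days. The libraries labelled Cre+ were at 71.6 FPKM (replicate 1, with 1.02 FPKM of Pou5f1) and 21.2 FPKM (replicate 2, with 27.7 FPKM of Pou5f1). The log2 fold change was -0.20 ± 0.49 (95% interval -1.24 to 0.84, adjusted p = 0.964), and it was 0.42 without replicate 2 and -1.32 without replicate 1. Here 0 of 6 actins were called by edgeR or by DESeq2 and 0 had an unadjusted p under 0.05, with 0.304% of all genes called (0.258% higher and 0.0452% lower in the libraries labelled Cre+).

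**Figure D4:**
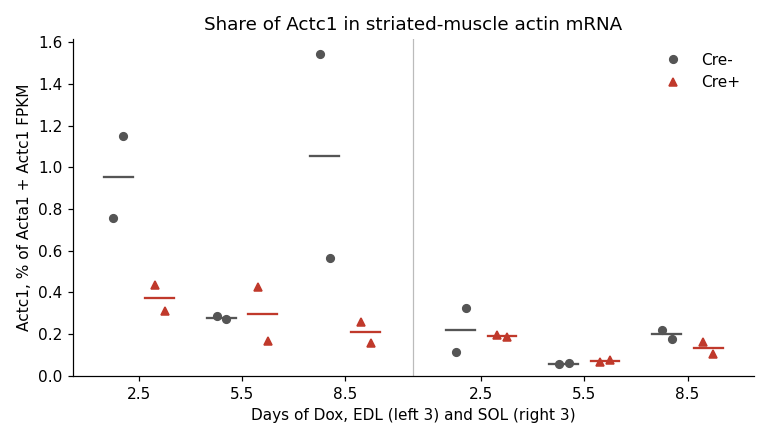
Actc1 as a percentage of the summed FPKM of Acta1 and Actc1 (y axis) in each library by days of Dox and muscle, with Cre- as grey circles, Cre+ as red triangles and a line at each group mean. Cre- EDL lies at 0.565% to 1.54% at 2.5 and 8.5 days and at 0.273% and 0.287% at 5.5 days, and the 4 SOL libraries of 5.5 days lie at 0.0587% to 0.0767%.

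Between the muscles of Cre- mice, Actc1 was higher in EDL than in SOL on each of the 3 days, and Actg1 was lower. The sign for Actg1 at 2.5 days turned when 1 library was left out (0.032 without Cre- EDL replicate 1). In Cre- mice the log2 fold change of Actc1, EDL against SOL, was 1.85 ± 0.47 at 2.5 days and 1.81 ± 0.46 at 8.5 days. These values share the Cre- EDL libraries that entered the choice of genes and are given with no test. They were 1.36 without Cre- EDL replicate 2 and 1.40 without Cre- SOL replicate 1 at 2.5 days, and 0.94 without Cre- EDL replicate 1 and 1.58 without Cre- SOL replicate 2 at 8.5 days, which put Actc1 under the rule each time. At 5.5 days, which did not enter the choice, Actc1 was at 52.4 and 44.2 FPKM in EDL and at 14.7 and 16.5 FPKM in SOL, with no overlap. The log2 fold change was 1.74 ± 0.51 (adjusted p = 0.0192). Leaving out any 1 of these 4 libraries gave 1.62 to 1.85 with an adjusted p between 0.0501 and 0.125, so the call needs all 4.

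Actg1 was at 16.2 and 13.05 FPKM in EDL and at 28.9 and 26.7 FPKM in SOL at 5.5 days, with no overlap. It was lower in EDL by a log2 fold change of -0.82 ± 0.22 (adjusted p = 0.0116), and the adjusted p was 0.067 without Cre- SOL replicate 1 and 0.122 without Cre- EDL replicate 2. At 8.5 days the value was -0.64 ± 0.22 (adjusted p = 0.0601), and -0.88 without Cre- EDL replicate 2. With same-numbered EDL and SOL libraries taken as a block, the 8.5-day value was -0.65 (adjusted p = 0.0084). At 2.5 days the value was -0.22 ± 0.22 (adjusted p = 0.564). Actg1 made up 13.9% to 19.5% of the summed FPKM of Actb and Actg1 in the 12 EDL libraries and 17.1% to 22.0% in the 12 SOL libraries.

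Acta1 was at 18215 and 16184 FPKM in EDL and at 25065 and 27617 FPKM in SOL at 5.5 days, with no overlap, and its log2 fold change was -0.51 ± 0.24 (adjusted p = 0.147). It was -0.41 ± 0.27 (adjusted p = 0.337) at 2.5 days and -0.58 ± 0.27 (adjusted p = 0.147) at 8.5 days. Acta2 had -0.10 (adjusted p = 0.887) at 2.5 days, -0.48 (adjusted p = 0.362) at 5.5 days and -0.77 (adjusted p = 0.125) at 8.5 days. With same-numbered EDL and SOL libraries taken as a block, Acta2 had -0.86 (adjusted p = 0.0178) at 8.5 days. In all, 2 of 6 actins (Actc1 and Actg1) were called at 5.5 days, where 19.8% of all genes were (9.6% higher and 10.2% lower in EDL). Without the block, Actc1 was the 1 actin past the rule at 2.5 days and at 8.5 days. The Cre- EDL libraries of these days entered the choice of genes, so nothing is read from its place past the rule. Of all genes, 16% (8.14% higher and 7.86% lower) and 18.2% (8.65% higher and 9.53% lower) were called on these days.

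The actins also differed between days of Dox, in a comparison added after the values were seen and averaged over both genotypes. In SOL, Actc1 was at 14.7 to 17.6 FPKM in the 4 libraries of 5.5 days and at 34.8 to 80.4 FPKM in the 8 others, with no overlap. The log2 fold change, 5.5 against 2.5 and 8.5 days, was -1.48 ± 0.33 (adjusted p = 0.0038), and it stayed past the rule when any 1 of the 12 libraries was left out (-1.59 to -1.33). Acta2 was lower as well, by -0.64 ± 0.22 (adjusted p = 0.0383), a call that was kept without Cre+ replicate 2 of 2.5 days or Cre- replicate 1 of 8.5 days and lost without any of the other 10 libraries. These were 2 of 6 actins, with 12.7% of all genes called (4% higher and 8.74% lower at 5.5 days).

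From 2.5 to 8.5 days in SOL, 3 of 6 actins rose, with 10.7% of all genes called (7.31% higher and 3.4% lower at 8.5 days). Acta2 was at 12.6 to 19.3 FPKM at 2.5 days and at 26.9 to 33.5 FPKM at 8.5 days, with no overlap and a log2 fold change of 0.98 ± 0.24 (adjusted p = 0.0128). Actb was at 110 to 151 FPKM and then at 198 to 225 FPKM, again apart, with 0.70 ± 0.16 (adjusted p = 0.00708). Actg1 was at 29.7 to 40.8 FPKM and then at 41.0 to 52.8 FPKM, with 0.51 ± 0.15 (adjusted p = 0.0311). The Acta2 call was lost without Cre+ SOL replicate 2 of 2.5 days (adjusted p = 0.0729), and that of Actb without 0 of the 8. The Actg1 call was lost without any of 6 libraries (adjusted p up to 0.131) and kept without Cre+ replicate 1 of 2.5 days or Cre- replicate 1 of 8.5 days.

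In EDL, Actb was higher at 8.5 than at 2.5 days by 0.61 ± 0.16 (adjusted p = 0.0222). It was the 1 actin called there, beside 6.38% of all genes (3.92% higher and 2.46% lower), and the call was lost without Cre- replicate 1 or Cre+ replicate 2 of 2.5 days, or without Cre+ replicate 1 or Cre- replicate 2 of 8.5 days (adjusted p 0.0714 to 0.0944). Between 5.5 and the other days in EDL, edgeR called 0 of the 6 actins (14.7% of all genes, 4.59% higher and 10.1% lower at 5.5 days), as did DESeq2, while Actb and Actg1 had an unadjusted p under 0.05. The days differ in more than actins: fibroblast markers (Pdgfra, Dcn, Lum, Col1a1, Col1a2 and Col3a1) summed to 348.4 to 636.3 FPKM at 5.5 days, 616 to 976 FPKM at 2.5 days and 1215 to 1942 FPKM at 8.5 days in SOL. Of these 6 genes 5 fell at 5.5 days against the other days and 3 rose from 2.5 to 8.5 days in SOL. The smooth muscle markers summed to 54.8 to 62.1, 62.7 to 78.8 and 85.4 to 92.6 FPKM on the same days. Of 5 satellite cell markers 3 fell at 5.5 days in SOL, while their sum was 22.8 to 25.1 FPKM then and 19.6 to 32.9 FPKM on the other days. The macrophage and leukocyte markers summed to 9.38 to 15.5 FPKM at 2.5 days and 13.8 to 21.2 FPKM at 8.5 days in SOL, and to 7.94 to 12.6 and 12.3 to 25.1 FPKM in EDL. Between these days 3 of these 5 markers rose in SOL and 3 of 5 in EDL, with median log2 fold changes of 0.73 and 1.38. Of 13 genes of developing or injured muscle, 6 rose and 0 fell in SOL and 5 rose and 1 fell in EDL between the same days. The part of these markers in the actin values was not tested, and the day and any batch of the libraries cannot be told apart.

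Genes known to act on actin were read as 6 lists with 73 tested genes in all, and for each list the values of its 3 most abundant genes are given. The lists were chosen with earlier results of these data known, and the part of these genes in the actin values was not tested. The counts stand beside 13.8% of all genes that rose and 10.2% that fell in Cre+ EDL at 2.5 days, and 7.63% and 6.5% at 8.5 days. For all 6 lists they depend on TMM scaling. With library size alone, 4207 of all genes rose and 610 fell at 2.5 days, against 2118 and 1566. Of 8 genes for SRF and its cofactors, 0 rose and 2 fell in Cre+ EDL at 2.5 days, and 0 rose and 4 fell at 8.5 days. The median log2 fold change of this list was -0.42 and -0.59, against -0.047 and -0.017 over all genes. Srf itself fell by 1.03 on the log2 scale (SE 0.17, adjusted p = 0.000758) at 2.5 days and by 0.68 (SE 0.17, adjusted p = 0.0152) at 8.5 days. Abra, a muscle activator of SRF signalling, had -0.64 (SE 0.30, adjusted p = 0.136) at 2.5 days and fell by 1.02 (SE 0.30, adjusted p = 0.0374) at 8.5 days, whereas Fhl1 had -0.11 and -0.12. The others that fell were Mkl1 on both days and Mkl2 at 8.5 days, coactivators of SRF that sense free actin, which are named after their values were seen.

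Of 10 tested genes for the length and caps of the thin filament, 4 fell and 0 rose at 2.5 days, and 2 fell and 0 rose at 8.5 days, with medians of -0.55 and -0.33. Actn2, a Z-disc protein that anchors thin filaments, fell by 0.78 (SE 0.17, adjusted p = 0.00507) at 2.5 days and had -0.36 (adjusted p = 0.184) at 8.5 days. Actn3, its fast fibre counterpart, had -0.91 (SE 0.41, adjusted p = 0.117) and -0.22, and Tmod4, a cap of the pointed end, had -0.55 (adjusted p = 0.0639) and -0.20. Neb (nebulin, which sets filament length) and Tmod1 (another pointed end cap) were those that fell on both days, named after their values were seen.

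Of 14 genes for actin folding, 3 rose at 2.5 days and 2 at 8.5 days, and 0 fell, with medians of 0.15 and 0.20. Tcp1, a subunit of the CCT chaperonin, had 0.46 (SE 0.13) at 2.5 days, which is under the limit of 0.5, and rose by 0.56 (SE 0.13, adjusted p = 0.0102) at 8.5 days. Cct5 had 0.15 and 0.26, and Pfdn5, of the prefoldin complex that hands actin to CCT, had -0.11 and 0.15.

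Genes for monomer binding and turnover, nucleation and modification went both ways, with list medians between -0.21 and 0.28, beside 24% and 14.1% of all genes called on the same days. Of 16 genes for monomer binding and turnover, 2 rose and 2 fell at 2.5 days, and 1 rose and 1 fell at 8.5 days. Its most abundant genes Gsn (gelsolin), Tmsb4x (thymosin beta 4) and Twf2 (twinfilin) had log2 fold changes of -0.46 to 0.20 and none was called. Of 20 genes for nucleation and branching, 5 rose and 3 fell at 2.5 days, and 3 rose and 1 fell at 8.5 days. Lmod3, a nucleator of sarcomeric actin, fell by 0.64 (SE 0.15, adjusted p = 0.00736) at 2.5 days and had 0.25 at 8.5 days, Lmod2 had -0.20 and 0.74 (adjusted p = 0.057), and Arpc5l had -0.31 and -0.26. Of 5 tested genes for actin modification, 2 rose and 1 fell at 2.5 days, and 1 rose and 1 fell at 8.5 days. Msrb1 rose by 0.60 (SE 0.18, adjusted p = 0.0235) at 2.5 days and had 0.52 (adjusted p = 0.0624) at 8.5 days, while Setd3 and Nat6 were not called.

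Outside these EDL groups, edgeR called 0 of the 73 genes in SOL at 2.5, 5.5 and 8.5 days, with 14, 3 and 3 genes at an unadjusted p under 0.05, and DESeq2 called 1 (in the SRF list), 0 and 0. In EDL at 5.5 days edgeR called 0 as well, with 8 genes at an unadjusted p under 0.05 and 3 called by DESeq2.

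Genes of developing or injured muscle, the setting in which Actc1 is known to be abundant in limb muscle, had few calls in Cre+ EDL. Of 13 tested genes of this list, 1 rose and 1 fell at 2.5 days, and 2 rose and 0 fell at 8.5 days. Of all genes, 13.8% rose and 10.2% fell at 2.5 days, and 7.63% rose and 6.5% fell at 8.5 days, so nothing is read from these counts. The list had medians of -0.71 and -0.031, against -0.047 and -0.017 over all genes. Csrp3, a muscle LIM protein, had -1.15 (SE 0.55, adjusted p = 0.139) and -0.52, Ankrd2 had -0.35 and -0.54, and Xirp1 had 0.32 at 2.5 days and rose by 1.07 (SE 0.19, adjusted p = 0.00255) at 8.5 days. Ncam1 rose on both days and Chrna1 fell at 2.5 days, both named after their values were seen. Of 5 satellite cell markers 0 were called on either day, with medians of 0.069 and 0.013.

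Some markers of smooth muscle fell in Cre+ EDL. Of Myh11, Tagln, Cnn1, Smtn, Lmod1 and Mylk, 4 of 6 fell at 2.5 days and 1 of 6 at 8.5 days, and 0 rose. Of all genes, 10.2% fell and 13.8% rose at 2.5 days, and 6.5% fell and 7.63% rose at 8.5 days. These calls rest on TMM scaling: with library size alone, 610 of all genes fell at 2.5 days, against 1566. Tagln, an actin-binding protein of smooth muscle, fell by 0.85 (SE 0.28, adjusted p = 0.0367) at 2.5 days and had -0.49 (adjusted p = 0.258) at 8.5 days. Their summed level was 45.7 and 62.6 FPKM in Cre- and 48.8 and 35.1 FPKM in Cre+ EDL at 2.5 days, and at 8.5 days 48.9 and 66.9 FPKM in Cre- and 45.0 and 51.2 FPKM in Cre+, so the genotypes overlapped. Over the 24 libraries this sum ran from 31.8 to 92.6 FPKM, and none of its 6 genes was at 0. At 2.5 days 3 of 6 pericyte markers fell and 1 rose, and 3 of 5 endothelial markers fell and 0 rose. The same shares of all genes and the same limit of scaling stand beside these counts. Of 5 macrophage and 6 fibroblast markers 0 were called at 2.5 days or at 8.5 days. The part of these cells in the Acta2 values was not tested.

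Across the 24 libraries, each actin had its own nearest genes by Pearson correlation of log2(CPM + 1), a description over libraries that share muscles, days and genotypes. Acta1 was most like Perm1 (r = 0.957), Ldb3 (0.955), a Z-disc gene, and Tpm2 (0.954), a tropomyosin. Actc1 was most like Ccdc69 (0.938) and the imprinted noncoding RNAs Meg3 (0.900) and Mirg (0.897). Acta2 was most like Bcar3 (0.949), Tagln (0.943) and Zyx (0.939), and Actg2 most like Myl9 (0.799), Arhgdib (0.760) and Myh11 (0.759). Tagln, Myl9 and Myh11 are expressed in smooth muscle.

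Actb was most like Nes (0.956), Spry4 (0.943) and Tmem173 (0.939), and Actg1 most like Arhgef40 (0.929), Icam2 (0.924) and Smtn (0.918). Among the actins themselves, r was 0.935 between Acta2 and Actb and 0.905 between Actb and Actg1. Over both muscles together, Actc1 was apart from the rest, with r between 0.061 and 0.478 and only 0.13 with Acta1, its partner in the sarcomere. Muscle moved these genes in opposite directions. In Cre- mice at 5.5 days, mean Actc1 was 48.3 FPKM in EDL and 15.6 FPKM in SOL, and mean Acta1 17199 and 26341 FPKM. Within EDL, both were lower in Cre+ than in Cre- muscles in the comparison that chose the genes. The pooled r therefore cannot tell whether both genes vary together within a muscle, which was not tested.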

How the data were processed

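PolyA RNA of 24 whole muscles was sequenced single-end with a strand-specific kit. The authors checked reads with FastQC 0.11.2, aligned them to mm10 with STAR 2.5.3a and used HOMER to count uniquely aligned reads over RefSeq exons, and the values analysed are these deposited raw counts. The sources used here do not say whether counting used strand. The FPKM values were computed here from the counts, the exon length given in the table and the library total, and are not TMM scaled.

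Counts were fitted with edgeR 4.0.16 (R 4.3.3): TMM scaling, filterByExpr with a minimum count of 10, a mean for each group, and the quasi-likelihood test with Benjamini-Hochberg adjustment over all genes. Comparisons at 2.5 and 8.5 days came from a fit of those 16 libraries (15372 genes), and those at 5.5 days or between days from a fit of 24 (15478 genes). Genes past 0.05 (adjusted p, below) and 0.5 (size of the log2 fold change, above) were called, and log2 fold changes are edgeR's own estimates with its default prior count. Errors are SE unless stated. DESeq2 1.42.0 on the same libraries, other scalings and filters, a replicate block and fits with 1 library left out were alternatives. The pipeline was tested on simulated data. The study describes the libraries of a group as independent biological samples. The p-values of edgeR rest on the spread between such libraries, shared over all groups of a fit and across genes. They do not measure the spread within the groups compared alone. A count of 0 allows up to 0.0549 to 0.0831 CPM (3 counts of the total), for counting error only.

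Sequences came from GENCODE vM21 transcripts (GRCm38) and RefSeq promoters (GRCm38.p6), and only annotated transcripts were searched for matches. The genes and gene lists were chosen with earlier results of these data known. Named were the 6 actins, the 3 most abundant genes of a list (mean FPKM), and for each actin the 3 genes most like it among those with a mean of at least 1 FPKM. Other genes named in the text are said to be chosen after their values were seen, and markers are named to define a list.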

Additional observations from a re-analysis of the deposited data

How the results depend on the processing

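With 2 libraries a group, leaving out 1 library was the alternative that moved most results. Of 380 tested log2 fold changes of the actins with a library left out, 309 kept their direction and call, 41 turned, 27 lost a call and 3 gained one. Under the other settings, 420 of 441 kept both, 8 turned, 1 lost a call and 12 gained one. Of the values given with no test, 60 of 76 kept direction and call with a library left out, 2 turned, 11 fell under the call rule and 3 came past it, and under the other settings 127 of 134 kept both, 6 fell under the rule and 1 came past it. The number of actins called in EDL between Cre+ and Cre- went from 4 to between 1 and 5 at 2.5 days and from 2 to between 1 and 2 at 8.5 days when a library was left out. At 8.5 days it was 1 with edgeR on the 4 libraries alone. Between EDL and SOL it was 0 to 1 at 2.5 days (1 with all libraries), 0 to 1 at 5.5 days (2) and 0 to 3 at 8.5 days (1). At 8.5 days it was 3 with library size alone, 2 with no filter, 2 in the fit of 24 libraries, 3 with DESeq2 on the same libraries, 0 with edgeR on 4 libraries and 2 with DESeq2 on 4 libraries. Between days it was 0 to 2 for EDL 8.5 against 2.5 days, 1 to 2 for SOL 5.5 against the other days, 1 to 3 for SOL 8.5 against 2.5 days, and 0 to 1 for EDL 5.5 against the other days, where library size alone gave 2. The cause of these changes was not tested, and some of these fits held fewer samples or genes.

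Replicate numbers were not taken to pair the samples in the main fits. Deviations of same-numbered libraries correlated at -0.25 to 0.10 between Cre+ and Cre- (6 groups). Between EDL and SOL they correlated at 0.099 to 0.51 (6 groups, with 5 of 6 at 0.24 or more). The labels do not say whether same-numbered EDL and SOL libraries share a mouse, and the main tests between muscles leave such a pairing out. With the replicate block, 1 actin was past the rule in EDL between genotypes at 8.5 days. Between EDL and SOL at 8.5 days it was 3, where Actg1 (adjusted p = 0.0084) and Acta2 (adjusted p = 0.0178) joined Actc1, which is given with no test there. The other counts of called actins stayed within 1.5 times.

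Directions that turned were of small or noisy values. With library size alone, Acta2 in SOL at 2.5 days was 0.072 and Actg2 in EDL at 5.5 against the other days was -0.087. In SOL at 2.5 days, Actb was -0.0065 with the size factors of DESeq2, -0.0016 in the fit of 24, -0.0056 with DESeq2 and -4.5e-05 with DESeq2 on 4 libraries, and Actg1 was -0.0032 with those size factors and -0.0023 with DESeq2.

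With a library left out, log2 fold changes between Cre+ and Cre- in SOL at 2.5 days were -0.99 to 0.11 for Actc1, -0.42 to 0.19 for Acta2, -0.67 to 0.47 for Actg2, -0.13 to 0.15 for Actb and -0.14 to 0.16 for Actg1. At 8.5 days they were -0.20 to 0.082 for Acta1 and -0.018 to 0.13 for Acta2. In EDL at 5.5 days they were -1.32 to 0.42 for Actc1, -0.48 to 0.55 for Acta2, -1.53 to 2.10 for Actg2, -0.31 to 0.34 for Actb and -0.11 to 0.34 for Actg1. Between EDL and SOL at 2.5 days they were -0.55 to 0.25 for Acta2, -0.032 to 1.65 for Actg2, -0.27 to 0.19 for Actb and -0.52 to 0.032 for Actg1, and at 8.5 days -1.50 to 0.44 for Actg2. Between days, they were -0.51 to 0.0066 for Acta2 and -1.26 to 0.56 for Actg2 in EDL at 5.5 days, -0.11 to 0.23 for Acta1 and -0.37 to 0.79 for Actg2 in EDL at 8.5 against 2.5 days, -0.099 to 0.026 for Acta1 in SOL at 5.5 days and -0.18 to 0.37 for Actc1 in SOL at 8.5 against 2.5 days. Where a group was left with 1 library, that library was assumed to vary like the other groups. Depth limits Actg2 alone among the 6 genes, at 4 to 55 counts a library.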
